A study of Mus musculus with 4 samples.

Results

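The gene of transglutaminase 2, Tgm2, was studied together with genes of retinoic acid signalling in IL-10 producing and non-producing CD4+CD25+ T-cells. The set holds 9 genes, Tgm2, the receptors Rara, Rarg, Rxra and Rxrb, the binding protein gene Crabp2 and the enzyme genes Aldh1a2, Cyp26b1 and Dhrs3. Every probe set whose platform annotation names 1 of these genes and no other was taken, which gave 17 of the 45037 probe sets compared. The annotation names 18193 genes in all. The genes were selected on the difference between IL-10+ and IL-10- arrays, which was known when they were proposed, above all that of Tgm2. Their own differences are therefore given as a description without a test.

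Retinoic acid is made from vitamin A. Retinol dehydrogenases and retinaldehyde dehydrogenases oxidise retinol, and the CYP26 enzymes break the product down. In the nucleus it binds RAR receptors, which act on DNA as pairs with RXR receptors and switch genes on when the ligand is bound. In T-cells retinoic acid is known for inducing gut homing receptors and for supporting the differentiation of regulatory T-cells. Transglutaminase 2 crosslinks proteins, binds GTP and is a classical gene induced by retinoic acid in several cell types.

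The cells came from lymph nodes of C57BL/6 mice aged 6 to 12 weeks that had been injected with D665, a superagonistic antibody to CD28 (CD28SA). On day 3, CD4+CD25+ cells were isolated and kept overnight with antibodies to CD3 at 2 µg/ml and to CD28 at 5 µg/ml, together with human IL-2 at 200 U/ml. They were then stained for IL-10 and sorted into IL-10+ cells (replicates 1 and 2) and IL-10- cells (replicates 3 and 4). Both groups thus share the injection, the culture and the strain, and unstimulated cells were not analysed here. Each sample was read on 1 Affymetrix Mouse Genome array. The labels do not say whether replicates came from separate mice or sorts, so a p-value here reflects the scatter of these 4 samples alone, and that scatter may be technical. With 2 arrays against 2, an exact permutation test cannot go below p = 0.333.

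Values are on the log2 scale as read here, and a negative difference means a lower value in IL-10+ cells. A probe set is said to be called where its adjusted p from limma was under 0.05. Il10, the gene of the sorted cytokine, stood at 12.02 and 12.00 on the IL-10+ and at 10.41 and 10.37 on the IL-10- arrays. Of 17 probe sets of CD4 regulatory T-cell markers, 9 were higher and 4 lower. Foxp3, which defines the lineage, was among the lower ones, at 10.86 and 10.79 in IL-10+ and at 11.55 on both IL-10- arrays. Cd4 was higher, with 9.86 and 9.91 in IL-10+ against 6.97 and 6.67 in IL-10- cells at its dimmer probe set (difference 3.07). At its brighter probe set Cd4 differed by 0.51. Ctla4 was higher by 0.87, and Cd28 by 0.77 and 0.53. The reason for these differences was not tested. Of 39 probe sets of B and plasma cell markers, 0 were higher (0 at an unadjusted p under 0.05 from limma) and 26 lower. Over all probe sets 13.6% were called higher and 16.2% lower (6133 and 7307 probe sets, or 4668 and 10076 after median centring of the arrays). Bacterial transcripts added to the RNA as poly-A controls differed little at the 3' end (median 0.09 over 4 transcripts) and were higher on the IL-10+ arrays at the 5' end (median 1.11).

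Promoter sequences were looked at because RAR and RXR bind DNA at repeats of a core motif. The motif was searched on both strands in its 4 spellings, which are AGGTCA, then AGTTCA with a changed middle, GGGTCA with a changed start, and GGTTCA with both changes, in the 250 bases before each RefSeq start (build GRCm38.p6). Capitals below mark the motif or its reverse complement. Promoters of 2 textbook retinoic acid targets show what the full site looks like, a direct repeat with 5 bases between the copies (DR5).
Rarb, chr14:16575503-16575539, minus strand: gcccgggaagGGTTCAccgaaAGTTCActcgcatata
Cyp26a1, chr19:37697766-37697802, plus strand: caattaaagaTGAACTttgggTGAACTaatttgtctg
Such a DR5 lies in 0.0883% of all 32851 windows, and the repeats with 1 or 2 bases between the copies (DR1 and DR2) in 0.164% and 0.174%. The single motif, which each repeat contains, lies in 38.6%. Windows were found for 7 of the 9 genes and none for Tgm2 and Crabp2. Of their 15 windows, 3 hold the single motif and 0 hold a DR1, DR2 or DR5. The 2 windows printed next belong to the receptor gene with the higher and the receptor gene with the lower value in IL-10+ cells.
Rara, chr11:98939461-98939710, plus strand: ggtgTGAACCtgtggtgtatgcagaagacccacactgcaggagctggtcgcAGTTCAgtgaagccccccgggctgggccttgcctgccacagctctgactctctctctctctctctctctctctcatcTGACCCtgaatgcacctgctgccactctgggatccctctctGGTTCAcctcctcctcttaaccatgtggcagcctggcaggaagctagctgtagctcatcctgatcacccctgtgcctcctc
Rxrb, chr17:34031562-34031811, plus strand: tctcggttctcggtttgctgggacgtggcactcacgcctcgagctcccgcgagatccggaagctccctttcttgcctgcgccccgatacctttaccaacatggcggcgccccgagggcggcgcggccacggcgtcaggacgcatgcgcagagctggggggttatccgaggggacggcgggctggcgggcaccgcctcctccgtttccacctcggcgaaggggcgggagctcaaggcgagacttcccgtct
The Rara window, before 1 of 4 starts in the table, holds 4 copies of the motif counted over both strands, and the Rxrb window holds 0. The other 3 Rara windows and the other Rxrb window also hold 0. Of the receptor genes that differed little, Rxra has 1 window with 3 copies and Rarg 1 window with 1 copy. A match is a description of letters, not of binding, and its absence says nothing about sites elsewhere.

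Tgm2 was lower in IL-10+ cells at all 6 probe sets, and at 4 of them by more than 2 on the log2 scale. The brightest, 1433428_x_at, read 7.36 and 7.39 on the IL-10+ arrays and 10.26 and 10.34 on the IL-10- arrays. The groups were separated by a gap of 2.88, against SDs of 0.02 and 0.05 within them (n = 2 each). The difference was -2.93 (standard error 0.06), which is 7.62-fold if the values are log2 and 18.7-fold if they are natural logs. The deposited table does not name the base, while figure legends of the study express its differences as natural logs of the fold change, so the fold sizes here hold only under the reading named. Only the log2 reading keeps the largest fall on these arrays within the maximal fold change that the study names for its selected genes. Among all 45037 probe sets it ranked 13 from the largest fall.

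A pair of further probe sets gave nearly the same picture. For 1437277_x_at the values were 6.96 and 7.08 in IL-10+ and 10.02 and 10.07 in IL-10- cells, a difference of -3.02 (standard error 0.07). For 1455900_x_at they were 7.42 and 7.26 against 10.02 and 10.20, a difference of -2.77 (standard error 0.09). The suffix x marks a probe set that can also match other transcripts, and the 3 brightest of Tgm2 all carry it. The probe set 1417500_a_at, whose suffix marks transcripts of the same gene, read 7.15 and 6.91 in IL-10+ and 9.17 and 9.07 in IL-10- cells. Its difference of -2.09 (standard error 0.09) ranked 41 from the largest fall, so a large difference was also read without the x probe sets.

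The remaining 2 Tgm2 probe sets differed far less. 1426004_a_at was at 6.67 and 6.75 in IL-10+ and 7.18 and 6.97 in IL-10- cells (difference -0.36, standard error 0.09). 1438942_x_at was at 5.55 and 5.63 against 5.83 and 5.81 (difference -0.23, standard error 0.06), below the lower quartile of its array in IL-10+ cells. Neither pair of groups overlapped. Over normalization, filters and leaving out each array, the differences ranged from -0.47 to -0.26 and from -0.30 to -0.19. On the mean over its 6 probe sets Tgm2 differed by -1.90.

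**Figure D1:**
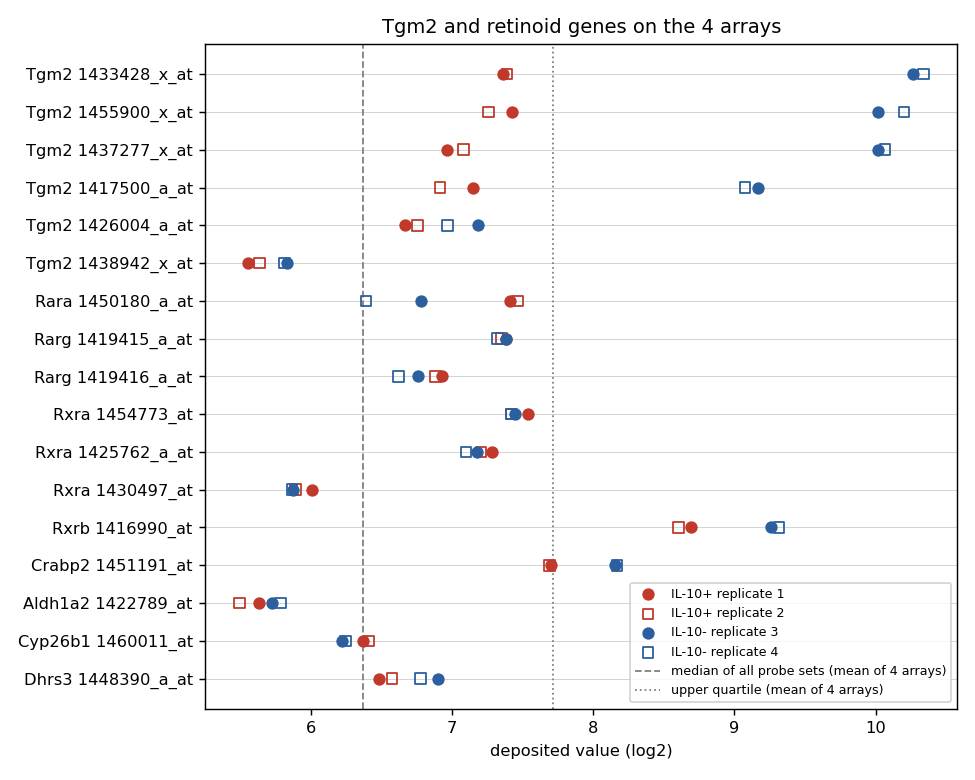
Deposited value (log2, horizontal axis) of every probe set of the 9 genes on the 4 arrays, with IL-10+ arrays in red and IL-10- arrays in blue. The 4 upper Tgm2 probe sets lie between 6.91 and 7.42 on the IL-10+ arrays and between 9.07 and 10.34 on the IL-10- arrays, while those of Rarg and Rxra lie close together.

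Among the nuclear receptors, Rara was higher and Rxrb lower in IL-10+ cells, while Rarg and Rxra differed little. Rara encodes RAR alpha, the main retinoic acid receptor of T-cells, and its single probe set read 7.41 and 7.46 in IL-10+ and 6.78 and 6.39 in IL-10- cells. The SD of 0.28 between the IL-10- arrays was the widest among the 17 probe sets, and the groups did not overlap. The difference was 0.85 (standard error 0.12). It points the same way as the 5' differences of the added control transcripts, whose part in it was not tested. Rxrb encodes RXR beta, a partner receptor, and read 8.69 and 8.60 in IL-10+ and 9.26 and 9.32 in IL-10- cells (difference -0.64, standard error 0.07).

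The 2 probe sets of Rarg, the gene of RAR gamma, differed by 0.01 and 0.22 (standard errors 0.06 and 0.07). The brighter one read 7.38 and 7.35 in IL-10+ and 7.38 and 7.32 in IL-10- cells, so the groups overlapped. The other, at 6.92 and 6.88 against 6.76 and 6.62, showed no overlap, and its difference ranged from 0.14 to 0.28 over the same settings. The 3 probe sets of Rxra, the gene of RXR alpha, differed by 0.04, 0.11 and 0.08 with standard errors of 0.07. Its brightest read 7.54 and 7.42 in IL-10+ and 7.44 and 7.42 in IL-10- cells, again with overlap. After median centring the brightest probe sets of both genes differed by -0.06 and -0.03, so no direction can be given for them.

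Crabp2 and Dhrs3, which handle retinoic acid and its precursors inside the cell, were somewhat lower in IL-10+ cells. Crabp2 encodes a binding protein that carries retinoic acid to its receptors, and read 7.70 and 7.69 in IL-10+ and 8.15 and 8.17 in IL-10- cells. Its difference of -0.46 (standard error 0.06) stood against SDs of 0.01 within each group. Dhrs3, a reductase that returns retinaldehyde to retinol, read 6.48 and 6.57 against 6.90 and 6.77 (difference -0.31, standard error 0.07).

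The genes of the enzymes that make and break down retinoic acid read near or below the middle of the array in both groups, a brightness that depends on the probes as well as on the transcript. Aldh1a2 encodes a retinaldehyde dehydrogenase known from dendritic cells. It read 5.63 and 5.49 in IL-10+ and 5.72 and 5.78 in IL-10- cells, below the lower quartile of each array, with a difference of -0.19 (standard error 0.07). The difference ranged from -0.27 to -0.12 over the same settings. Cyp26b1 encodes a hydroxylase that degrades retinoic acid and read 6.37 and 6.41 against 6.22 and 6.24. Its difference was 0.16 (standard error 0.06). How much signal such probe sets would give without any transcript is not known from these arrays.

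**Figure D2:**
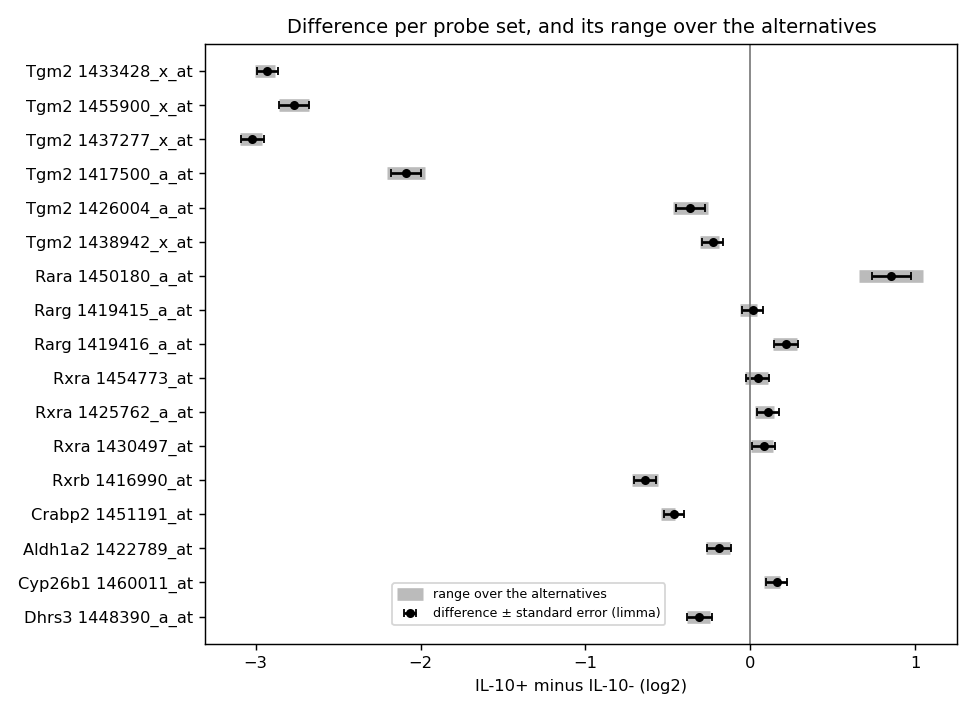
Difference IL-10+ minus IL-10- (log2, horizontal axis) per probe set with its standard error from limma, and as grey bars its range over normalization, filters, the variance prior and leaving out each array. Of the 17 probe sets, 4 of Tgm2 lie between -3.02 and -2.09, Rara is the furthest to the right at 0.85, and the bars of the brightest probe sets of Rarg and Rxra reach below 0.

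Over the whole set, 1 probe set was called higher, 9 lower and 7 neither, where 29.8% of all probe sets were called in either direction. Leaving out Tgm2, it was 1 higher and 3 lower of 11. Groups did not overlap for 15 of the 17, against 63.0% of all probe sets. In 5 the IL-10+ values were the higher and in 10 the lower, against 32.5% and 30.5%. The median difference was -0.23 over the set and 0.01 over all probe sets. Since this contrast was in view when the genes were proposed, nothing is read from these counts.

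The genes whose pattern over the 4 arrays was most like that of Tgm2 were Ighm, Igfbp4, Jchain, Mzb1 and Cd74. Likeness was measured as the mean absolute distance from the brightest Tgm2 probe set, with each probe set centred on its own mean. The distances were 0.05 for Ighm and Igfbp4, 0.09 for Jchain, 0.11 for Mzb1 and 0.17 for Cd74. For comparison, the other 2 bright x probe sets of Tgm2 itself were at 0.05 and 0.09. With 4 arrays this ranks little more than the size of the difference between groups.

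Ighm encodes the heavy chain of IgM, Jchain the joining chain of secreted antibodies, Mzb1 a chaperone of antibody secreting cells, and Cd74 the invariant chain of class II presentation. All 4 belong to the list of B and plasma cell markers used here, and Igfbp4, which encodes a binding protein of insulin-like growth factors, does not. That list was chosen with earlier results of these data known, so this membership may be partly fixed by the choice. Jchain read 7.66 and 7.73 in IL-10+ and 10.43 and 10.46 in IL-10- cells. The summed linear level of the 39 marker probe sets was between 10524 and 10687 on the IL-10+ and between 36301 and 38494 on the IL-10- arrays. The brighter probe set of Ms4a1, the gene of the B cell antigen CD20, read 5.82 and 5.67 against 6.97 and 6.95, and those of the B cell factor Pax5 lay between 6.02 and 6.21 on all arrays. The part of these cells in the difference of Tgm2 was not tested. In a bulk sample, fewer cells of a type and less RNA per cell cannot be told apart.

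Macrophages and endothelial cells are known for high Tgm2. Of 22 probe sets of myeloid and dendritic cell markers, 5 were higher, 0 lower (0 at an unadjusted p under 0.05 from limma) and 17 neither in IL-10+ cells, and the summed linear levels were between 2675 and 2765 on the IL-10+ and between 2088 and 2159 on the IL-10- arrays. Those that rose with the largest differences were Cd68, a lysosomal protein of macrophages, by 0.89 (adjusted p = 6.97e-05), Cd14, a receptor of lipopolysaccharide, by 0.49, Zbtb46, a dendritic cell factor, by 0.46, and Csf1r, the receptor of a macrophage growth factor, by 0.30. Cd68 read 10.08 and 10.03 in IL-10+ and 9.18 and 9.15 in IL-10- cells. This 1 bright probe set holds most of the difference between the summed myeloid levels, and the median difference over all 22 was 0.04. Zbtb46 was dim, at 6.00 and 6.01 in IL-10+ and at 5.51 and 5.57 in IL-10- cells, below the lower quartile of both IL-10- arrays. The myeloid lysozyme gene Lyz2 read 6.07 and 6.06 against 6.22 and 6.05, with no separation. Of 22 probe sets of stromal and endothelial markers, 2 were higher and 0 lower (1 at an unadjusted p under 0.05), with summed linear levels of 1668 to 1676 against 1461 to 1486. They belong to Pecam1, an adhesion molecule of endothelium and leukocytes (0.69, adjusted p = 0.00021), and to Col1a2, a collagen chain (0.20, adjusted p = 0.0475). The Pecam1 probe set holds most of the difference between the summed stromal and endothelial levels, and the median difference of that list was 0.05. The endothelial cadherin gene Cdh5 lay between 5.70 and 5.96 on all arrays. The part of these cells in the difference of Tgm2 was not tested either. For 14 probe sets of NK and CD8 T-cell markers it was 3 higher and 7 lower.

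**Figure D3:**
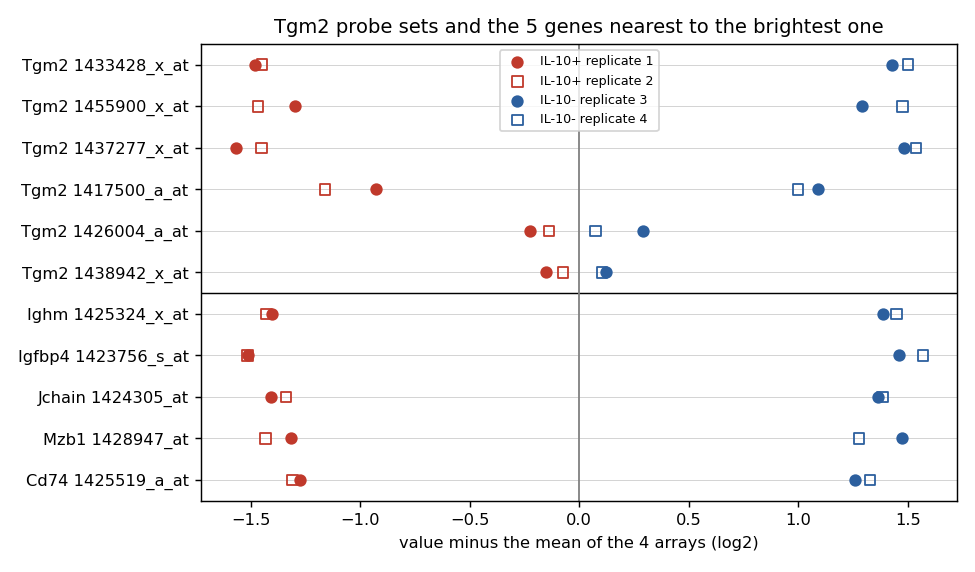
Values of the 6 Tgm2 probe sets and of the 5 genes nearest to the brightest one, minus each probe set's mean over the 4 arrays (log2, horizontal axis), with IL-10+ arrays in red and IL-10- arrays in blue. Ighm, at a distance of 0.05, and the others lie with the 3 upper Tgm2 probe sets, and both groups of the 2 lowest Tgm2 probe sets sit near 0.

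In the rest of the retinoid pathway few probe sets were called, and most of its probe sets were dim. The genes that passed encode enzymes, as do most genes of the list. Of 41 further genes of uptake, metabolism, binding and receptors, 38 were measured with 57 probe sets. Of these 4 rose and 5 fell, or 15.8%, beside 29.8% over all probe sets, and the median difference was 0.00. Median centring gave 4 and 9, and 2 of each were left without IL-10+ replicate 1. Only 20 of the 57 were at or above the median mean level of all probe sets. With those alone, 5 rose and 4 fell, beside 5014 and 7151 of 22519 over all such probe sets. The largest rise in the list was that of Rdh11, a retinal reductase, at both of its probe sets. The larger one read 8.50 and 8.56 in IL-10+ and 7.81 and 7.67 in IL-10- cells (difference 0.79, standard error 0.07, adjusted p = 0.000212 from limma). Adh5, an alcohol dehydrogenase better known for clearing formaldehyde, fell at its brighter probe set from 10.97 and 11.02 to 10.32 and 10.33 (difference -0.67, adjusted p = 0.000212).

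Rdh13, a mitochondrial retinol dehydrogenase, fell from 7.15 and 7.11 to 6.53 and 6.63 (difference -0.55, adjusted p = 0.000722). Dgat1, which can esterify retinol beside its main role in triglyceride synthesis, rose at its dimmer probe set by 0.45 (adjusted p = 0.0283), which was not past the threshold without IL-10+ replicate 1 or 2. Dhrs4 had 1 probe set that rose and 1 that fell. Among genes not called was Rdh10, the retinol dehydrogenase of the first step of synthesis, whose brighter probe set read 7.59 on both IL-10+ arrays and 7.68 and 7.74 on the IL-10- arrays (adjusted p = 0.199). Fabp5, a fatty acid carrier that can also deliver retinoic acid, was bright at 12.77 and 12.81 against 12.87 and 13.03, with an adjusted p of 0.155. The other enzymes of synthesis, Aldh1a1 and Aldh1a3, had values from 5.26 to 6.51 and differences from -0.04 to 0.11, and none was called.

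Genes known to respond to retinoic acid split in both directions, and the textbook targets with a DR5 shown above did not pass. Of 22 genes 19 were measured with 40 probe sets, of which 11 rose and 5 fell, beside 13.6% and 16.2% over all probe sets, and the median difference was 0.04. After median centring it was 9 and 7, and without IL-10+ replicate 1 the lower count was 3. Rarb, the receptor gene induced by its own ligand, read 5.60 and 5.63 in IL-10+ and 5.67 and 5.73 in IL-10- cells (adjusted p = 0.394). Cyp26a1 read 6.02 and 6.23 against 6.15 and 6.02 (adjusted p = 0.765). Both were dim, and the groups of Cyp26a1 overlapped.

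The gut homing genes among them did not move as 1 group. Ccr9, the chemokine receptor of the small intestine, rose at 3 of 5 probe sets, by 0.85, 1.20 and 1.93. The brightest of these read 11.09 on both IL-10+ arrays and 10.34 and 10.15 on the IL-10- arrays (adjusted p = 0.000216). Itgb7, the beta chain of the gut homing integrin, fell from 11.31 and 11.34 to 10.48 and 10.45 (difference -0.86, adjusted p = 7.5e-05). Itga4, its alpha chain, rose at 3 probe sets by 0.21 to 1.09 and fell at its brightest by 0.32 (adjusted p = 0.00867).

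Ets1, a lymphocyte transcription factor, rose by 1.99 and 1.66 at its 2 dimmer probe sets (adjusted p = 6.48e-06 and 1.12e-05). Its 2 brighter ones read 11.96 and 12.01 against 11.93 and 12.05, and 11.69 and 11.83 against 11.86 and 12.11, and were not called. Asb2, a ubiquitin ligase subunit, was bright and rose from 10.20 and 10.03 to 11.07 and 11.14 (difference 0.99, adjusted p = 9.98e-05). On the IL-10+ arrays the poly-A controls also read higher in their middle, by 0.81 (median of 4), and the part of such differences along a transcript in rises seen at the dimmer probe sets of a gene was not tested.

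**Figure D4:**
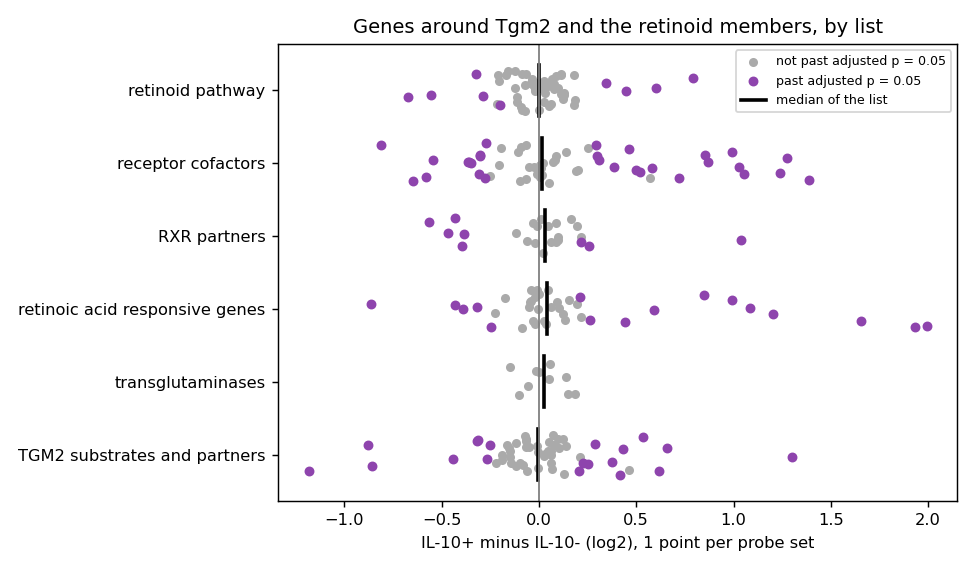
Difference IL-10+ minus IL-10- (log2, horizontal axis) of each probe set in the 6 lists of related genes, purple where the adjusted p from limma was under 0.05, with the median of each list as a black bar. The medians lie between 0.00 and 0.04 in size, and the widest rises, to 1.99, are in the list of retinoic acid responsive genes.

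Calls among the cofactors of the retinoid receptors often went in both directions for 1 gene. Of 54 probe sets of 15 measured genes, 17 rose and 12 fell (53.7%, beside 29.8% over all probe sets), and 6 genes had calls both ways. Without IL-10+ replicate 1 or 2 the lower count was 6 or 5. Calls were more frequent among bright probe sets in general, and most cofactor probe sets were bright. With only those at or above the median mean level kept, 13 of 44 cofactor probe sets rose and 12 fell. Over all such probe sets, 5014 of 22519 rose and 7151 fell. Nrip1 encodes a corepressor that binds ligand-activated receptors and is itself known to respond to retinoic acid. It rose at 4 of 6 probe sets, by 0.46 to 1.27, and its brightest went from 8.73 and 8.58 to 9.94 and 9.85 (difference 1.24, adjusted p = 3.94e-05). Med1, the Mediator subunit that contacts nuclear receptors, rose by 1.39 at its brightest of 7 probe sets (adjusted p = 2.41e-05), rose by 0.86 at another and fell by 0.31 at 1 more. Tacc1, known for binding nuclear receptors, rose by 1.06 at its dimmest probe set (adjusted p = 7.1e-05) and fell by 0.36 at its brightest. Tbl1x, a corepressor subunit, likewise rose by 1.03 at its dimmest (adjusted p = 0.000207) and fell by 0.58 at its brightest. Hdac3, the deacetylase of the same corepressor, rose by 0.50 (adjusted p = 0.00296).

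Of the other receptors that pair with RXR, 12 of 13 were measured with 24 probe sets, of which 3 rose and 5 fell (33.3%, near the 29.8% over all probe sets). The count that rose was 1 after median centring or quantile normalization and without IL-10+ replicate 1 or 2. Thra, a thyroid hormone receptor, fell at all 3 of its probe sets, by 0.56, 0.40 and 0.38 (adjusted p = 0.000474 for the largest). Vdr, the vitamin D receptor, rose at 1 probe set from 6.72 and 6.37 to 7.56 and 7.60 (difference 1.04, adjusted p = 0.000371), while its brighter probe set differed by -0.06 (adjusted p = 0.583). Ppard, which Fabp5 can supply with retinoic acid, fell at its brighter probe set by 0.43 (adjusted p = 0.0028), and on the mean over its probe sets it was not past the threshold (-0.11, adjusted p = 0.212). Nr4a2, an activation induced orphan receptor, fell by 0.47 at 1 and rose by 0.26 at another of 6 probe sets.

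No other transglutaminase was called, but only 2 of their 10 probe sets were at or above the median mean level of all probe sets. Of 9 genes of the family 8 were measured, and their 10 probe sets differed by -0.15 to 0.18, with 0 past an adjusted p of 0.05 from limma and 0 at an unadjusted p under 0.05. Without IL-10- replicate 4, 1 was called lower. Tgm1, the keratinocyte enzyme, read 6.85 and 6.93 in IL-10+ and 7.16 and 6.91 in IL-10- cells, with overlap, and F13a1, the clotting factor XIII subunit, 6.06 and 6.17 against 5.90 and 6.02.

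For proteins that transglutaminase 2 binds or crosslinks, 11 of 57 probe sets rose and 8 fell (33.3%, near the 29.8% over all probe sets). The split was 7 and 16 after median centring and 13 and 6 after quantile normalization, the lower count was 4 without IL-10+ replicate 1, and without IL-10+ replicate 2 the counts were 7 and 5. Itgb3, an integrin beta chain, rose by 1.30 at its dimmer probe set (adjusted p = 3.98e-05) and fell by 0.31 at its brighter one. Plcd1, a phospholipase that transglutaminase 2 can activate, fell at both probe sets, the brighter from 9.53 and 9.23 to 8.21 and 8.19 (difference -1.18, adjusted p = 0.000148). Anxa1, the anti-inflammatory annexin, fell at its brightest probe set from 7.45 and 7.49 to 6.70 and 6.48 (difference -0.88, adjusted p = 0.000241). On the mean over its probe sets Anxa1 differed by -0.50. Sdc4, a proteoglycan of cell adhesion, rose at its brightest probe set from 7.47 and 7.52 to 8.09 and 8.22 (difference 0.66, adjusted p = 0.000397), and by 0.44 on the mean over its probe sets. Fibronectin, the best known surface partner, had its gene Fn1 between 5.40 and 6.56 with neither of its 2 probe sets called.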

How the data were processed

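RNA of 2 IL-10+ and 2 IL-10- samples had been labelled and hybridized to 1 Affymetrix mouse array per sample. Variance stabilization in Bioconductor was the normalization used by the authors, and the deposited table gives each probe set a value on every array, taken as log2. No source used here gives the base of the deposited values, although the study's figure legends express differences as natural logs of fold changes. The study also names a maximal fold change for its selected genes. The largest fall here, that of the B and plasma cell marker Igha, is 44.2-fold under log2, below that maximum. Under natural logs it would be 237-fold, above it. The summary of probes into probe sets is not given in the sources used here, and variance stabilization compresses dim values. Depth has no counterpart on arrays, and their number limits the precision.

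Of 45101 probe sets, 64 controls were set aside. The other 45037 were compared with limma 3.58.1 in R 4.3.3 (lmFit, eBayes, two-sided, Benjamini-Hochberg over all), with 5.44 prior and 2 residual degrees of freedom. The step was tested on simulated arrays. Of 100 probe sets changed by 0.5, 46 were called, and of 100 changed by 1.0, 97 were. Of 44837 unchanged ones, 8 were called. A true change of 0.5 can thus be missed. Far fewer probe sets changed in the simulation than were called in the real data, so these shares may not carry over. Tables and figures were made with Python 3.11.15 and matplotlib 3.10.9.

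The platform annotation names 1 gene for 34958 probe sets, several for 932 and none listed here for 9211. Matching by gene identifier to RefSeq changed 0 symbols of the listed genes. Brightest means the highest mean over the 4 arrays, a summed linear level is the sum of 2 raised to each value, and promoters are those of RefSeq.

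The members and the 6 gene and 5 marker lists were chosen with earlier results of these data known. Named were all members, up to 4 passing genes of each gene list by size of difference with no overlap of groups, the 5 genes nearest to Tgm2 and defining markers. Genes outside this rule (Rdh10, Fabp5, Aldh1a1, Aldh1a3, Rarb, Cyp26a1, Itgb7, Dhrs4, Hdac3, Tgm1, F13a1 and Fn1) were chosen for their role after their values were seen. As alternatives, arrays were median centred or quantile normalized, probe sets below the median were dropped, the prior was given a trend or made robust, x and s probe sets were removed, a gene was represented by its brightest probe set or its mean, values were read as natural logs, and each array was omitted in turn.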

Additional observations from a re-analysis of the deposited data

How the results depend on the processing

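No paired analysis was made because the labels record no pairing of IL-10+ with IL-10- samples. Whether samples of the 2 groups came from the same sort is not known. Of 197 differences of the 17 probe sets recomputed under the alternatives, 191 kept their sign, and the 6 that did not belong to the brightest probe sets of Rarg and Rxra. Many of the 197 could not change sign. A changed prior, a filter, the brightest probe set per gene and natural logs leave a difference equal or only rescaled. All 6 changes came from normalization or an omitted array. The 4 large Tgm2 differences stayed negative under every alternative run, between -3.10 and -1.97 apart from the mean per gene (-1.90) and natural logs, which only rescale them (-4.36 to -3.01). Over all probe sets 6133 were higher and 7307 lower. Median centring gave 4668 and 10076, the brightest probe set of each gene 1665 and 4352, and the mean per gene 2218 and 3339, where fewer features are tested. Leaving out 1 array gave 3994 to 7427 higher (lowest without IL-10+ replicate 2) and 4676 to 8192 lower (lowest without IL-10+ replicate 1).

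Among the 17 probe sets, 1 higher and 9 lower became 4 lower with the brightest probe set or the mean per gene (9 genes), 5 lower without x and s probe sets, and 2 higher without the probe sets below the median. Leaving out 1 array gave 1 to 2 higher (2 without IL-10- replicate 3) and 6 to 9 lower (6 without IL-10+ replicate 1). Where only the brightest probe set stood for a gene, the counts higher were 1 for the retinoid pathway, 3 for receptor cofactors, 1 for RXR partners, 4 for retinoic acid responsive genes and 3 for TGM2 substrates, and the counts lower 6 for receptor cofactors, 2 for RXR partners and 5 for TGM2 substrates. With the mean per gene it was 1 higher and 2 lower for the retinoid pathway, 6 and 2 for receptor cofactors, 1 lower for RXR partners, 6 and 3 for retinoic acid responsive genes, and 5 and 3 for TGM2 substrates. Median centring gave 9 lower for the retinoid pathway, 1 higher for RXR partners, and 7 higher and 16 lower for TGM2 substrates. Quantile normalization gave 1 higher for RXR partners. Without dim probe sets 7 TGM2 substrates were higher, and without x and s probe sets 5 were lower. The cause of these shifts was not tested.

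Leaving out 1 array gave 2 to 6 higher and 2 to 6 lower for the retinoid pathway (the lowest without IL-10+ replicate 1), 15 to 20 and 5 to 16 for receptor cofactors, 1 to 3 and 5 for RXR partners, 9 to 11 and 3 to 6 for retinoic acid responsive genes, 0 and 0 to 1 for the other transglutaminases, and 7 to 11 and 4 to 10 for TGM2 substrates. With 1 array left in a group, that array is assumed to vary like the others. Of 236 values recomputed for the genes named from the lists, 233 kept their direction and side of the threshold. These genes were picked for large differences past that threshold, and several settings leave a difference unchanged or only rescaled. The agreement was thus partly fixed by the choice.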
